A study of Mus musculus with 32 samples.

Results

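Rosuvastatin and ezetimibe were combined in the livers of female ApoE3Leiden mice in a 2 × 2 design, and the quantity described here is their interaction: how far the response to ezetimibe differed with and without rosuvastatin. It was computed for each gene as (HC+RSV+EZE minus HC+RSV) minus (HC+EZE minus HC) on the log2 scale, which is the same number as the response to rosuvastatin with ezetimibe minus that without it. A value of 0 means that the log2 changes of the single drugs add up to the change under both. All 32 arrays entered, 8 in each group, and the genes were the 8853 of 10620 named genes whose signal was called detected (detection value over 0.95) on at least 8 arrays. ApoE3Leiden mice carry a human apolipoprotein E variant as a transgene and develop raised plasma cholesterol on cholesterol-rich food. The 4 groups were HC+RSV+EZE, fed a high-cholesterol diet with both rosuvastatin and ezetimibe, HC+RSV with rosuvastatin only, HC+EZE with ezetimibe only, and HC, the same diet with neither drug. Every group thus carried the transgene and ate the cholesterol diet, and no mice without either are compared here. The age of the mice, the doses, the length of treatment, the time of day of collection and the promoter that drives the transgene are not stated in the labels.

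Rosuvastatin is a statin, an inhibitor of the enzyme at the rate-limiting step of cholesterol synthesis. Ezetimibe blocks the transporter that takes up cholesterol from the intestine. Both lower the sterol supply of the liver by different routes, and hepatocytes answer low sterol through SREBP2, a membrane-bound transcription factor that is held back by INSIG proteins and, once released and cut, turns on the genes of cholesterol synthesis and uptake. The design therefore asks whether the liver's transcripts under both drugs are the sum of what each drug does alone.

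Hepatocyte markers were present as the tissue label requires, with 10 of 10 markers detected on all 32 arrays. Mean intensity ranged from 126.1 to 279.9 per array and 10724 to 13444 probes were detected. The arrays lay on 6 chips, each holding all 4 groups. The position of an array on its chip moved with ezetimibe, with mean positions of 7.75 in HC+RSV+EZE, 2.5 in HC+RSV and 6.5 in HC+EZE, against 1.25 in HC, but the same contrast of mean positions was exactly 0 for the interaction. Arrays of 4 livers had the lowest mean correlations with the others, namely HC+RSV replicate 3 (0.926), HC+EZE replicate 1 (0.951), HC replicate 1 (0.937) and HC replicate 8 (0.950), with the next lowest at 0.962. They were set apart after these correlations were seen, and values without them are given beside several results below. In whole liver, fewer cells of a type and less RNA per cell cannot be told apart. Values below are log2 intensities, ± is the SD over livers for a level and the standard error of the limma fit for a difference, and brackets hold 95% intervals. Adjusted p-values are Benjamini-Hochberg values of limma over the 8853 genes, called under 0.05.

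No gene had an interaction of the 2 drugs that passed the threshold. Of 8853 genes 0 were called (0%), and the smallest adjusted p in limma was 0.99996. At an unadjusted p under 0.05 there were 152 genes (1.72%), 82 with a positive and 70 with a negative interaction, where an even spread of p-values would give 5%. With the 4 arrays of low correlation left out there were 199 such genes (2.25%) and again 0 calls. The estimates centred on 0, with a median of -0.00 and quartiles of -0.12 and 0.12, and 4403 genes (49.7%) lay above 0. The bounds, those of the fit reported, differed widely between genes, and sizes changed with the processing, as given further below. For 8248 genes (93.2%) the whole 95% interval lay within 1 log2 unit of 0 on either side and for 2671 genes (30.2%) it lay within 0.5. From its centre to either end the interval spanned 0.44 for the median gene, 0.23 for the gene with the smallest standard error and 3.26 for the gene with the largest. Since the interaction is a difference of 2 differences, its median standard error was 0.22, against 0.15 for a single comparison of groups. The absence of calls thus does not show that the drugs acted independently on every gene.

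**Figure D1:**
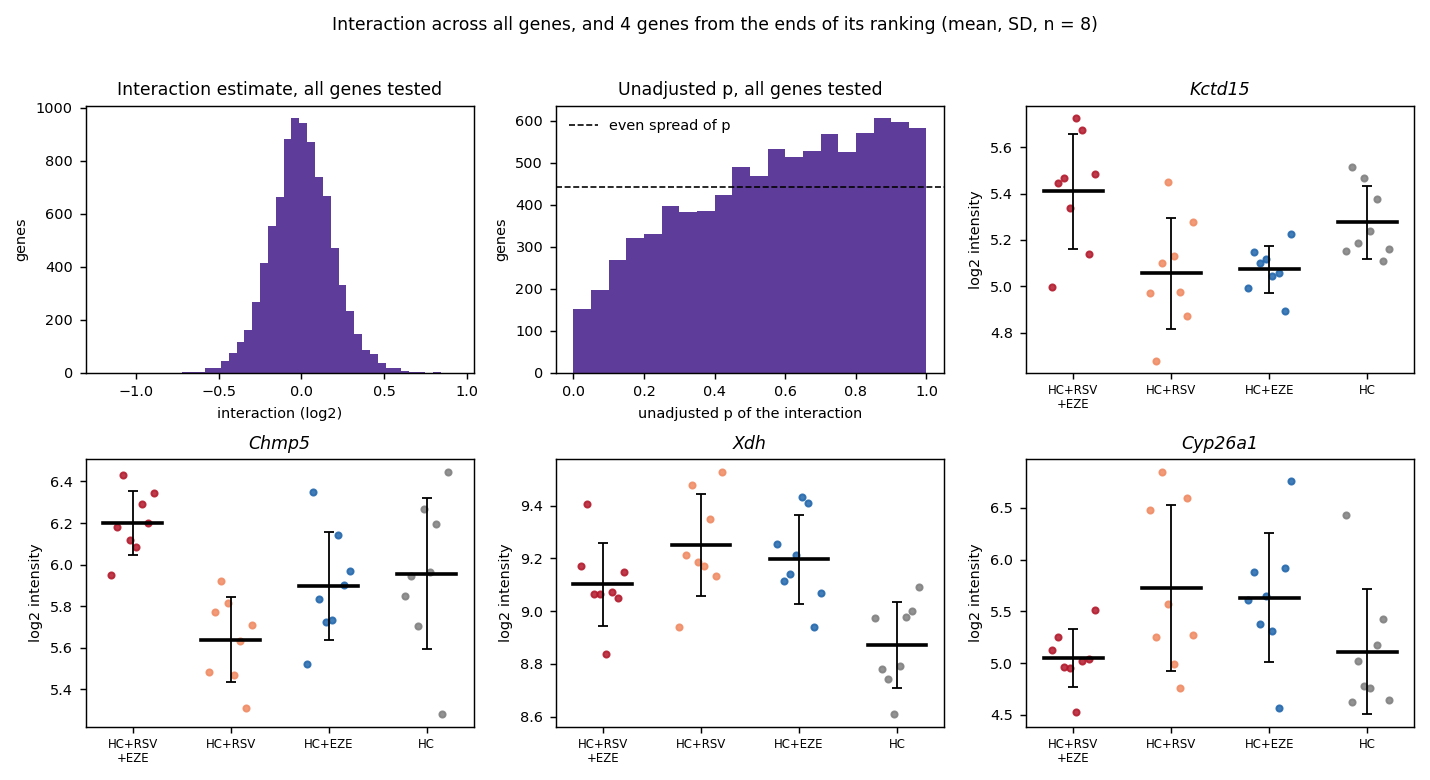
The upper left histogram gives the interaction (log2, x axis) of all 8853 genes (y axis, genes per bin) and the upper middle one their unadjusted p, with the dashed line at an even spread. The other panels show log2 intensity by group for 4 genes from the ends of the ranking, 1 point per liver, with mean and SD (n = 8). Estimates centre on 0 and small p-values are fewer than the line, with 152 genes under 0.05. Kctd15 and Chmp5 are highest in HC+RSV+EZE, and Xdh is lowest in HC.

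What the drugs did move can be read from the comparisons that make up the interaction. Ezetimibe given on top of rosuvastatin changed 5 genes (0.0565%), of which 4 were higher and 1 was lower in HC+RSV+EZE than in HC+RSV. Ezetimibe alone changed 4 genes (0.0452%), 3 higher and 1 lower in HC+EZE than in HC. Rosuvastatin changed 0 genes both on top of ezetimibe, HC+RSV+EZE against HC+EZE (0%), and alone, HC+RSV against HC (0%), with 151 and 237 genes at an unadjusted p under 0.05. The 2 ezetimibe comparisons called 7 genes between them, and Ciart and Usp2 were called in both. With array position as a covariate neither ezetimibe comparison had a call, and ezetimibe and position cannot be told apart here. Without the 4 arrays of low correlation the 2 comparisons called 13 and 5 genes. Leaving out 1 array at a time gave between 3 (without HC+RSV replicate 3) and 18 calls (without HC+RSV replicate 8) for ezetimibe on top of rosuvastatin, and between 2 (without HC replicate 1) and 8 (without HC replicate 5) for ezetimibe alone.

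Of these 7 genes, Ciart encodes a repressor that acts in the circadian clock and Usp2 a deubiquitinating enzyme with a strong daily rhythm in liver. Per1 is a core clock gene, and Coq10b encodes a mitochondrial coenzyme Q binding protein. Insig2 encodes one of the 2 INSIG proteins that hold SREBP2 back. Ifitm1 is an interferon-induced membrane protein, and Pnkd is named for a movement disorder that its human counterpart causes. For each of the 7 genes 1 promoter was searched for motifs, and those of 4 are shown. Ciart, Per1 and Coq10b are shown because they held a motif, and Usp2 because it belongs to the clock list with Ciart and Per1. They are 300 bases from RefSeq on GRCm38.p6, from 250 bases before to 50 after the annotated start, read 5′ to 3′ on the gene's strand. Capitals mark the E-box CACGTG, the site that CLOCK and BMAL1 bind, which reads the same on both strands, and the D-box TTATGTAA or its reverse complement TTACATAA, the site of DBP and its relatives. The 2 motifs overlap nowhere in these promoters.
Ciart, chr3:95882179-95882478, minus strand: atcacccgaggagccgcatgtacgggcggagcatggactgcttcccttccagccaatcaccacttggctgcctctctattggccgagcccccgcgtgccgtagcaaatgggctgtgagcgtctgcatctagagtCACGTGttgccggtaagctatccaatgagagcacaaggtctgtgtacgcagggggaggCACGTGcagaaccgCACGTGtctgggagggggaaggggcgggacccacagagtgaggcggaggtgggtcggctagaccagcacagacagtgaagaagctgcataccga
Per1, chr11:69098699-69098998, plus strand: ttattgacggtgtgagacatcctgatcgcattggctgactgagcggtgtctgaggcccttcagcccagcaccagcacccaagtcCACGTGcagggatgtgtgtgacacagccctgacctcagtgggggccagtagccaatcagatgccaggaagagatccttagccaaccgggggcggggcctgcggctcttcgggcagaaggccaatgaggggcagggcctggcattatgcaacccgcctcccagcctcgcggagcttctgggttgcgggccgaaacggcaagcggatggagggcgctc
Coq10b, chr1:55052520-55052819, plus strand: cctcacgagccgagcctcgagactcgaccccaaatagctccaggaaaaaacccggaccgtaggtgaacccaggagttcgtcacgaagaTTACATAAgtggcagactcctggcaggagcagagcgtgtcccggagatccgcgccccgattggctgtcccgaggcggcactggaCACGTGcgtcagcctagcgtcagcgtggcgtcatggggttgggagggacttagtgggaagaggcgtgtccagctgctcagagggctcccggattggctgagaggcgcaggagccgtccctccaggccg
Usp2, chr9:44084670-44084969, plus strand: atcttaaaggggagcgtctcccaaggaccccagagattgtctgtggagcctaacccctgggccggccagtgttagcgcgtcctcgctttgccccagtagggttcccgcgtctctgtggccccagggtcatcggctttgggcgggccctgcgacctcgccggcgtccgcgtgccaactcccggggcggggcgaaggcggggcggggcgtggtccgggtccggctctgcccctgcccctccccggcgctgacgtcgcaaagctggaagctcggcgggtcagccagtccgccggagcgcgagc
Ciart held 3 E-boxes, Per1 held 1, and Coq10b held 1 E-box and 1 D-box. Usp2, Insig2, Pnkd and Ifitm1 held 0 of either in this window. The cAMP response element TGACGTCA, which reads the same on both strands, was searched as well and occurred in 0 of the 7. Per1 has 2 promoter entries and Insig2 has 3, and only 1 of each was searched, for Per1 the one shown. Of all 32851 promoters of this length in the table, 7.15% held an E-box, 0.938% a D-box and 1.79% a cAMP response element. A match is a run of letters and was not tested for binding.

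Ciart had 6.54, 6.92 and 8.10 as the lowest, median and highest log2 intensity in HC+RSV+EZE, against 4.41, 5.35 and 6.94 in HC+RSV. Without rosuvastatin it had 6.66, 7.04 and 7.63 in HC+EZE, against 4.81, 5.52 and 5.81 in HC. All 8 HC+EZE livers were above every HC liver, while 2 of the 8 HC+RSV livers reached into the range of HC+RSV+EZE. Ciart was higher with ezetimibe by 1.68 ± 0.28 with rosuvastatin (3.21-fold, limma adjusted p = 0.00934) and by 1.67 ± 0.28 without it (3.17-fold, limma adjusted p = 0.0109). The interaction was 0.02 ± 0.40 [-0.80 to 0.83], so the level under both drugs was 1.01 times the level that adding the single changes gives, with an interval from 0.575 to 1.78. Its sign turned easily, since it ranged from -0.14 to 0.22 when single arrays were left out. A second Ciart probe, detected on 29 arrays, gave -0.04 ± 0.38.

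Usp2 followed the same course at a larger size. Its lowest, median and highest values were 8.06, 8.83 and 9.52 in HC+RSV+EZE, against 4.75, 6.61 and 8.73 in HC+RSV. They were 8.47, 8.83 and 9.25 in HC+EZE, against 6.19, 6.88 and 7.23 in HC. The HC+EZE and HC groups did not overlap, and the SD was 0.51 in HC+RSV+EZE, 1.49 in HC+RSV, the widest group, and 0.27 in HC+EZE, against 0.37 in HC. Usp2 was higher with ezetimibe by 2.11 ± 0.38 with rosuvastatin (4.30-fold, limma adjusted p = 0.0097) and by 2.04 ± 0.38 without it (4.10-fold, limma adjusted p = 0.0162). The interaction of 0.07 ± 0.54 [-1.02 to 1.16] left room for a level between 0.494 and 2.23 times the additive one. Of the other Usp2 probes, detected on 9 and 10 arrays, neither showed a difference above 0.29 in the 2 ezetimibe comparisons.

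Per1 and Coq10b were each called in only 1 of the 2 ezetimibe comparisons, and the interaction tests whether the responses differed. Per1 had 6.46, 7.12 and 7.93 in HC+RSV+EZE, against 5.46, 5.79 and 6.71 in HC+RSV, and 6.28, 6.70 and 7.37 in HC+EZE, against 5.16, 5.72 and 6.44 in HC. It was higher by 1.20 ± 0.21 with rosuvastatin (limma adjusted p = 0.0097) and its difference without it was 0.92 ± 0.21 (limma adjusted p = 0.135). The interaction was 0.27 ± 0.30 [-0.34 to 0.88], no larger than its error. Coq10b had 7.97, 8.58 and 8.68 in HC+RSV+EZE, against 6.90, 7.22 and 8.65 in HC+RSV, and 8.14, 8.67 and 9.69 in HC+EZE, against 7.21, 7.65 and 8.12 in HC. Only the groups without rosuvastatin were free of overlap. Its difference was 0.94 ± 0.21 with rosuvastatin (limma adjusted p = 0.074) and it was higher by 1.14 ± 0.21 without it (limma adjusted p = 0.0161), with an interaction of -0.20 ± 0.29 [-0.80 to 0.39]. A second Coq10b probe, detected on all 32 arrays, gave an interaction of 0.07 ± 0.26. Its ezetimibe differences were 0.93 with rosuvastatin and 0.86 without it. Neither gene's pair of responses was distinguishable, though an extra rise of up to 0.88 for Per1 lay inside the interval.

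Insig2 was the gene of sterol control among those ezetimibe changed. It had 9.42, 9.61 and 10.06 in HC+RSV+EZE, against 9.56, 10.62 and 11.23 in HC+RSV, and 9.40, 9.75 and 10.19 in HC+EZE, against 10.23, 10.66 and 11.04 in HC. All 8 HC+EZE livers lay below every HC liver. Insig2 fell by 0.93 ± 0.18 without rosuvastatin (0.524-fold, limma adjusted p = 0.0162) and differed by -0.83 ± 0.18 with it (0.563-fold, limma adjusted p = 0.0578). The interaction of 0.10 ± 0.25 [-0.40 to 0.61] had a smaller error than that of any other called gene but Ifitm1. Its 2 other probes gave interactions of 0.01 ± 0.70 and -0.08 ± 0.34, both with lower values under ezetimibe in either background. Pnkd had 7.29, 7.79 and 8.11 in HC+RSV+EZE, against 7.79, 8.66 and 10.10 in HC+RSV, and 7.47, 7.94 and 8.57 in HC+EZE, against 8.33, 8.72 and 9.31 in HC. It fell by 1.03 ± 0.21 with rosuvastatin (limma adjusted p = 0.0475) and differed by -0.77 ± 0.21 without it (limma adjusted p = 0.389), with an interaction of -0.26 ± 0.30 [-0.87 to 0.35]. This interaction was -0.03 without the 4 arrays of low correlation. A second Pnkd probe, detected on 20 arrays, gave an interaction of 0.10 ± 0.18. Its ezetimibe differences were smaller, -0.24 with rosuvastatin and -0.34 without it.

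Ifitm1 was the gene of the 7 whose ezetimibe responses were farthest apart relative to their error. Its lowest, median and highest values were 5.32, 5.80 and 6.33 in HC+RSV+EZE, against 4.72, 5.04 and 5.26 in HC+RSV, and 4.85, 5.25 and 5.56 in HC+EZE, against 4.71, 5.05 and 5.55 in HC. All 8 livers with both drugs were above every liver with rosuvastatin only, while HC+EZE and HC overlapped. It rose by 0.74 ± 0.14 with rosuvastatin (1.67-fold, limma adjusted p = 0.0141) and differed by 0.16 ± 0.14 without it (1.12-fold, limma adjusted p = 0.999). The interaction was 0.58 ± 0.20 [0.18 to 0.98], or 1.499 times the additive level, with an unadjusted p of 0.00546 and a limma adjusted p of 0.99996. It lay above 0 within each of the 6 chips, between 0.29 and 1.27, and between 0.50 and 0.64 when single arrays were left out. Ifitm1 is also among the positive genes ranked by the interaction below. These ranges reuse the values that chose it and are no separate support. Its values were dim, and over 8853 genes it did not pass the threshold.

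**Figure D2:**
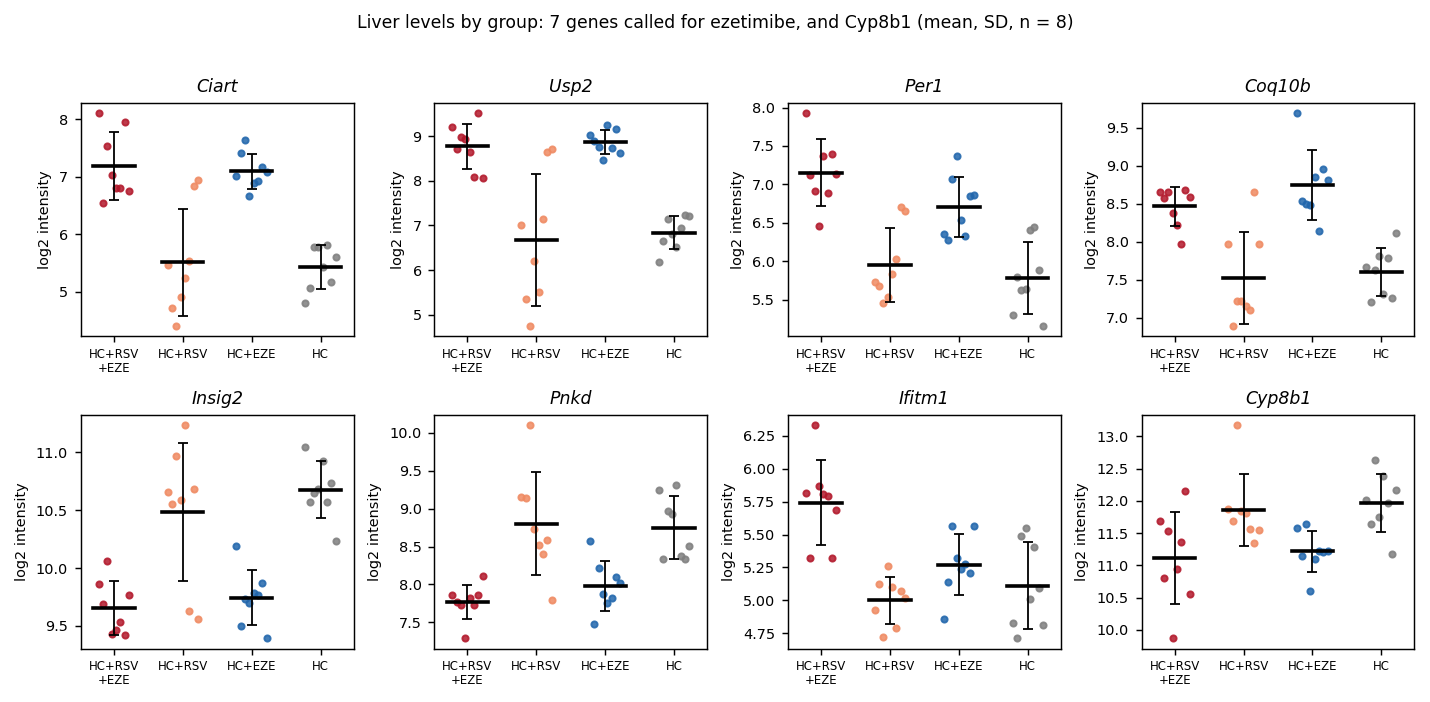
Log2 intensity (y axis) in the 4 groups (x axis) for the 7 genes called in an ezetimibe comparison and for Cyp8b1, 1 point per liver, with the mean and SD (n = 8 each). Ciart and Usp2 are higher in both groups with ezetimibe by like amounts, Insig2 and Cyp8b1 are lower in both, and Ifitm1 is higher in HC+RSV+EZE than in the other 3 groups.

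Genes of cholesterol synthesis gave no call in any of the 4 comparisons or in the interaction. Sqle, the squalene epoxidase, had 5.09, 6.56 and 8.92 in HC+RSV+EZE, against 5.43, 6.96 and 8.35 in HC+RSV, and 5.56, 6.76 and 7.84 in HC+EZE, against 5.18, 5.87 and 7.94 in HC. All 4 groups overlapped over most of their range. The differences from HC were 0.57 under both drugs, 0.67 under rosuvastatin and 0.39 under ezetimibe, and the interaction was -0.49 ± 0.71 [-1.92 to 0.95], an interval too wide to separate a sum from a shortfall. With chip as a block it was -0.79 ± 0.39, still not called. Fdps, the farnesyl diphosphate synthase, gave 0.26 ± 0.57 [-0.90 to 1.42]. Lss, the lanosterol synthase, gave -0.13 ± 0.43 [-0.998 to 0.74] and Cyp51, the lanosterol demethylase, -0.13 ± 0.48 [-1.11 to 0.85]. Livers of 1 group differed from each other in these genes by up to 3.83 log2 units (Sqle in HC+RSV+EZE). Of the 15 measured genes of the pathway 4 had an interaction above 0, the median was -0.05, and 0 had an unadjusted p under 0.05. Without the 4 arrays of low correlation 12 were above 0 and the median was 0.15. With chip as a block 3 were above 0 over all arrays, with a median of -0.11. Without the 4 arrays and with the block 1 was above 0 and the median was -0.21. The sign of the list's median thus turned with the arrays used when chip was not a block, and was below 0 both times with the block.

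Among the regulators, Srebf1, which encodes SREBP1 and drives fatty acid synthesis, came closest to an interaction. It had 7.15, 7.77 and 8.22 in HC+RSV+EZE, against 6.94, 8.07 and 9.001 in HC+RSV, and 7.42, 8.12 and 8.60 in HC+EZE, against 6.64, 7.76 and 8.83 in HC. The means under both drugs and under neither, 7.77 and 7.70, were lower than the 8.08 of HC+RSV and the 8.06 of HC+EZE. Its interaction was -0.67 ± 0.38 [-1.44 to 0.11], with an unadjusted p of 0.0884, and -0.33 without the 4 arrays of low correlation. Insig1, a target of SREBP2 and its brake, gave -0.52 ± 0.49 [-1.51 to 0.47], and 3 further Insig1 probes gave values between -0.61 and -0.15. Srebf2 itself gave -0.03 ± 0.22 [-0.48 to 0.42] and Tmem97, a sterol-regulated membrane protein, 0.16 ± 0.24 [-0.33 to 0.66]. These last 2 intervals were among the tighter ones of the sterol genes. Of the 10 measured SREBP regulators and targets 4 lay above 0, with a median of -0.11. Genes of the panel that fell outside the detection rule or were not listed, 4 in all, are not analysed here.

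Bile acid genes gave no call, and 2 of them, Cyp8b1 and Hsd3b7, differed between groups with and without ezetimibe by like amounts in both backgrounds. Cyp8b1, the sterol hydroxylase that sets the share of cholic acid, had 9.88, 11.15 and 12.15 in HC+RSV+EZE, against 11.35, 11.75 and 13.17 in HC+RSV, and 10.60, 11.21 and 11.65 in HC+EZE, against 11.17, 11.99 and 12.63 in HC. Its difference was -0.74 ± 0.25 with rosuvastatin (limma adjusted p = 0.448) and -0.75 ± 0.25 without it (limma adjusted p = 0.879), which left an interaction of 0.01 ± 0.35 [-0.71 to 0.73]. Hsd3b7, an enzyme of the same pathway, differed by -0.48 ± 0.15 and -0.37 ± 0.15, with an interaction of -0.11 ± 0.21 [-0.54 to 0.32]. Cyp7a1, the rate-limiting enzyme, had 9.90, 10.80 and 11.44 in HC+RSV+EZE, against 9.20, 10.80 and 11.35 in HC+RSV, and 10.50, 10.96 and 12.21 in HC+EZE, against 10.52, 11.0035 and 11.74 in HC. Its medians were lower in both groups with rosuvastatin than in those without, by amounts within the spread, and its interaction was 0.18 ± 0.38 [-0.59 to 0.95]. The sterol exporters Abcg5 and Abcg8, which pass cholesterol to bile, gave -0.01 ± 0.27 [-0.57 to 0.55] and -0.31 ± 0.38 [-1.07 to 0.46], and Abca1, which loads it onto HDL, 0.24 ± 0.16 [-0.09 to 0.57]. Of 17 measured bile acid genes 6 lay above 0, with a median of -0.08 and 0 at an unadjusted p under 0.05.

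Of 16 measured clock genes 3 were called for ezetimibe with rosuvastatin, where all genes tested gave 5 of 8853 (0.0565%), and 2 without it, where all genes gave 4 (0.0452%). The list was chosen with earlier results of these livers known, so these counts are a description. The median interaction of the list lay near 0. Dbp, a clock output factor that binds the D-box, had 11.29, 11.45 and 11.96 in HC+RSV+EZE, against 8.15, 10.63 and 11.79 in HC+RSV, and 10.87, 11.66 and 12.11 in HC+EZE, against 9.93, 10.55 and 11.23 in HC. Its differences were 1.17 ± 0.33 and 0.98 ± 0.33, and its interaction 0.19 ± 0.47 [-0.77 to 1.14]. Per2, a partner of Per1, differed by 0.59 and 0.61, with -0.02 ± 0.33 [-0.69 to 0.66]. Clock, the activating factor, differed by -0.58 and -0.57, with -0.01 ± 0.22 [-0.47 to 0.44]. Arntl, which encodes BMAL1, the partner of CLOCK, was detected in 2 HC+RSV+EZE, 5 HC+RSV, 2 HC+EZE and 8 HC livers, and gave 0.16 ± 0.28 [-0.42 to 0.73]. None of these differences of Dbp, Per2, Clock and Arntl was called. Nfil3, the repressor that competes with DBP for the D-box, differed from them in its values, and was picked from the list for its small interaction p. It had 6.30, 6.87 and 7.47 in HC+RSV+EZE, against 6.64, 7.89 and 8.55 in HC+RSV, and 6.90, 7.17 and 7.90 in HC+EZE, against 6.25, 7.497 and 8.11 in HC. Its difference was -0.86 ± 0.24 with rosuvastatin and -0.15 ± 0.24 without it, an interaction of -0.70 ± 0.34 [-1.39 to -0.01] with an unadjusted p of 0.0462. It was below 0 in 4 of 6 chips, and without the 4 arrays of low correlation it was -0.56 ± 0.35 with an unadjusted p of 0.125. Of 16 measured clock genes 6 lay above 0 and 10 below, the median was -0.03, and Nfil3 was the 1 gene with an unadjusted p under 0.05.

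**Figure D3:**
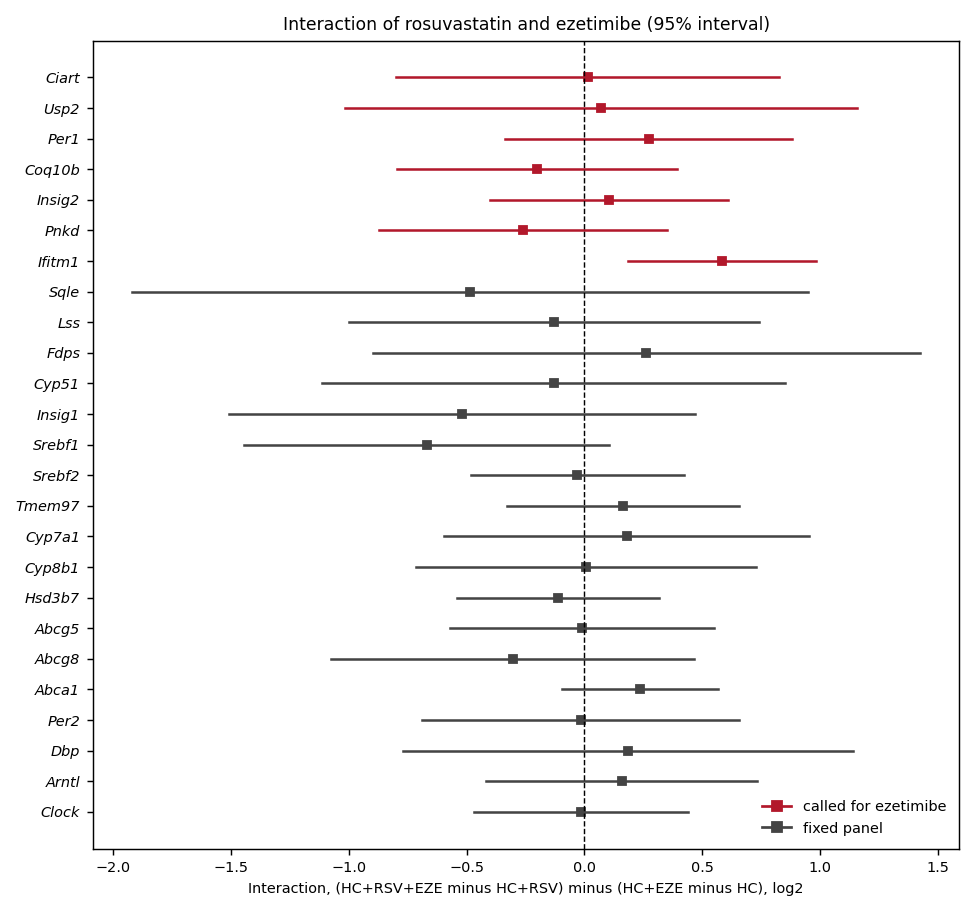
Interaction (x axis, log2) with its 95% interval for the 7 genes called in an ezetimibe comparison (red) and 18 further measured panel genes (grey), from the fit to all 32 arrays. All intervals but that of Ifitm1 include 0, and those of Sqle and Fdps are the widest.

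The ranking of genes by the interaction was read at both ends, as a description of 20 genes chosen by that ranking. The 10 positive genes had unadjusted p-values between 0.000953 and 0.00671 and interactions between 0.40 and 0.80. The 10 negative genes had unadjusted p-values between 0.00193 and 0.0109 and interactions between -1.20 and -0.45. The selection fixes part of the shape that follows. In all 10 positive genes the mean under both drugs was above those of both single drugs, and in 8 of them the HC mean was too. In all 10 negative genes the means of HC+RSV+EZE and of HC both lay below those of the single drugs. In 8 of the positive and 10 of the negative genes the mean under both drugs differed from that of HC by less than 0.25. Of the 20 genes 10 were detected on all 32 arrays.

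Kctd15, a member of the KCTD protein family, ranked first. It had 4.999, 5.46 and 5.73 in HC+RSV+EZE, against 4.68, 5.04 and 5.45 in HC+RSV and 4.89, 5.08 and 5.23 in HC+EZE, against 5.11, 5.21 and 5.51 in HC. Its interaction was 0.55 ± 0.15 [0.24 to 0.87], or 1.47 times the additive level. Zbtb8os had the largest positive value of the 20, 0.80 ± 0.22 [0.35 to 1.26], but was detected in only 5 HC+RSV and 5 HC+EZE livers. Chmp5, a subunit of the ESCRT-III membrane-scission complex, had 5.95, 6.19 and 6.43 in HC+RSV+EZE, against 5.31, 5.67 and 5.92 in HC+RSV and 5.52, 5.87 and 6.35 in HC+EZE, against 5.28, 5.95 and 6.45 in HC. Its HC+RSV+EZE livers were all above its HC+RSV livers, and the interaction was 0.62 ± 0.19 [0.24 to 1.002]. Vapa, an ER protein that tethers lipid-transfer proteins at membrane contact sites, gave 0.62 ± 0.22 [0.19 to 1.06], with means of 7.69 in HC+RSV+EZE, 7.15 in HC+RSV and 7.52 in HC+EZE, against 7.61 in HC. Rsu1, a Ras suppressor bound to focal adhesions, gave 0.66 ± 0.19 [0.26 to 1.05]. Nol9, with an interaction of 0.49, was detected in 0 of 8 HC+EZE livers.

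Among the negative genes, Xdh, the xanthine dehydrogenase that makes uric acid, was the brightest. It had 8.84, 9.07 and 9.41 in HC+RSV+EZE, against 8.94, 9.20 and 9.53 in HC+RSV and 8.94, 9.18 and 9.43 in HC+EZE, against 8.61, 8.88 and 9.09 in HC. The mean stood above that of HC by 0.38 with rosuvastatin alone and 0.33 with ezetimibe alone, neither of them called, with an interaction of -0.47 ± 0.14 [-0.76 to -0.19]. It was below 0 in all 6 chips, between -0.78 and -0.14. Gbp7, an interferon-induced guanylate-binding protein, gave -0.84 ± 0.27 [-1.39 to -0.29], while its other probe, detected on 16 arrays, gave -0.27 ± 0.18. Nlrc5, the activator of MHC class I genes, gave -0.52 ± 0.16 [-0.84 to -0.19]. Cyp26a1, the enzyme that clears retinoic acid, was the 1 gene of 8853 with an interaction beyond 1 in size in the fit reported. It had 4.53, 5.03 and 5.51 in HC+RSV+EZE, against 4.76, 5.42 and 6.85 in HC+RSV and 4.56, 5.63 and 6.76 in HC+EZE, against 4.62, 4.90 and 6.44 in HC. Its interaction of -1.20 ± 0.40 [-2.01 to -0.38], or 0.436 times the additive level, differed in sign between chips, with 4 below and 2 above 0, between -2.75 and 0.59. Prpf8, a core splicing factor, gave -0.52 ± 0.19 [-0.92 to -0.13] and was below 0 in all 6 chips. Xdh and Prpf8 were chosen by these same values, so their agreement between chips is no separate support. Maml1 was detected in 0 of 8 HC+RSV+EZE livers.

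Since every chip held all groups, chip could be taken out of the comparison. With chip as a fixed block the interaction still had 0 calls in limma, with a smallest adjusted p of 0.330, and 347 genes at an unadjusted p under 0.05 (178 positive and 169 negative, 3.92%). That smallest adjusted p was shared by 6 genes, Actl6a (0.68 ± 0.15), Il10rb (0.96 ± 0.22), Rsu1 (0.74 ± 0.17), Hgh1 (0.60 ± 0.14), Xdh (-0.56 ± 0.13) and Gbp7 (-0.94 ± 0.22). Actl6a encodes a subunit of chromatin remodelling complexes and Il10rb a chain of the receptors for interleukin 10 and type III interferons. Without the 4 arrays of low correlation and with the chip block, 630 genes (7.12%) had an unadjusted p under 0.05, above the 5% of an even spread, 0 were called and no adjusted p was under 0.239. With chip as a block ezetimibe on top of rosuvastatin changed 47 genes, 29 higher and 18 lower, while ezetimibe alone changed 5. The difference between these counts is no test of a difference in response. Of the 47 genes 39 had the same sign without rosuvastatin, 26 had an unadjusted interaction p under 0.05, and 0 had a called interaction. They were chosen for a large difference with rosuvastatin, which moves their interactions away from 0.

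The gene lists gave no member with a called interaction. Members named with an interaction in this and the following list paragraphs, Gsta1 apart, were picked after the values. They were among the up to 4 of their list with the smallest unadjusted interaction p. Counts of members above 0 are set against 49.7% over all genes tested, whose median was -0.00, and list members share livers, so a list is described and not tested. Fatty acid synthesis had 1 of 13 measured members above 0 and a median of -0.13. Its largest negative values were those of Thrsp, a lipogenic nuclear protein (-0.61 ± 0.83), Acly, which supplies acetyl-CoA (-0.57 ± 0.60), and Mlxipl, which encodes the carbohydrate-sensing factor ChREBP (-0.55 ± 0.36). Acly reached 13.33 in 1 HC+RSV+EZE liver and 13.66 in 1 HC+RSV liver, against medians of 10.89 and 11.37. Without the 4 arrays of low correlation Thrsp gave -0.02, Acly -0.21 and Mlxipl -0.40. With the 4 arrays of low correlation left out, 6 of 13 were above 0 and the median was -0.02. Without HC+RSV replicate 3 alone the median was 0.01. With chip as a block 1 of 13 was above 0 over all arrays, with a median of -0.26. The block without the 4 arrays also gave 1 of 13, with a median of -0.27. The list's position thus depended on both the arrays and the chip block.

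Complement and coagulation genes, made by hepatocytes for the plasma, had 3 of 20 members above 0 and a median of -0.19. C4b had 9.92, 10.36 and 11.06 in HC+RSV+EZE, against 10.38, 10.79 and 12.06 in HC+RSV, and 10.26, 10.44 and 11.19 in HC+EZE, against 10.02, 10.58 and 11.46 in HC. Its interaction was -0.45 ± 0.29, and that of Plg, the plasminogen gene, -0.38 ± 0.25. F5 gave -0.36 ± 0.25, while Serpinc1 went the other way at 0.32 ± 0.22. The list's mean level was 9.83 ± 0.19 in HC+RSV+EZE, 9.97 ± 0.15 in HC+RSV and 9.94 ± 0.22 in HC+EZE, against 9.91 ± 0.23 in HC (SD, n = 8 each). The interaction of this level was below 0 in each of the 6 chips, between -0.42 and -0.04. The chips hold the same values as the median, so this is no separate support. Without the 4 arrays of low correlation 2 of 20 members were above 0 with a median of -0.22. The acute phase list, with 5 of 18 above 0 and a median of -0.16, lay on the same side, but its median was -0.01 without HC+EZE replicate 5. The interaction of its mean level was above 0 in 4 of the 6 chips, between -1.11 and 0.37. No member of either list had an unadjusted p under 0.05.

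Ribosomal protein genes had 15 of 17 members above 0 and a median of 0.15, with Rplp0 at 0.30 ± 0.16 as the member with the smallest unadjusted p, 0.0656. Their mean level was 11.75 ± 0.12 in HC+RSV+EZE, 11.50 ± 0.35 in HC+RSV and 11.56 ± 0.35 in HC+EZE, against 11.46 ± 0.42 in HC (SD, n = 8 each), and the lowest liver stood at 11.58 in HC+RSV+EZE, 10.71 in HC+RSV and 10.74 in HC+EZE, against 10.66 in HC. The interaction of this mean level was above 0 in 4 of the 6 chips, between -0.39 and 0.75. The median of the ribosomal list was 0.0073 without HC+EZE replicate 1 and 0.29 without HC replicate 1. Without the 4 arrays of low correlation 15 of 17 members were above 0 (median 0.13). The same count was found with chip as a block (median 0.20) and with both changes (median 0.20). Cell cycle genes had 11 of 14 above 0 and a median of 0.21. Among them Pcna, the sliding clamp of DNA replication, had 4.89, 5.23 and 5.58 in HC+RSV+EZE, against 4.32, 4.76 and 5.13 in HC+RSV, and 4.54, 4.89 and 5.25 in HC+EZE, against 4.53, 4.97 and 5.13 in HC. Pcna gave 0.44 ± 0.19 with an unadjusted p of 0.0237, and 0.36 ± 0.19 with 0.0692 without the 4 arrays of low correlation. The interaction of the cell cycle list's mean level was above 0 in 3 of the 6 chips, between -0.37 and 0.60. Without the 4 arrays 11 of 14 members were above 0 (median 0.13). With chip as a block 11 were (median 0.23), and with both changes 12 (median 0.32). Oxidative phosphorylation had 22 of 28 above 0, with a median of 0.06, which was -0.06 without HC+EZE replicate 1 and 0.25 without HC replicate 8. Without all 4 arrays of low correlation again 22 of 28 were above 0 and the median was 0.18. In that fit 5 members had an unadjusted p under 0.05, where all genes tested gave 199 of 8853 (2.25%). In the fit to all arrays 0 of the 28 members had such a p, and with chip as a block 1 had. The interaction of the oxidative phosphorylation list's mean level was above 0 in 4 of the 6 chips, between -0.33 and 0.92.

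Interferon and antigen presentation genes had 9 of 19 above 0 and a median of -0.01. This position depended on the arrays used, with 6 of 19 above 0 and a median of -0.19 without the 4 arrays of low correlation, and a median of 0.07 without HC+RSV+EZE replicate 1. Ifitm1 lay at the upper end, followed by Irf7, the interferon regulatory factor (0.42 ± 0.25). Tap1, the peptide transporter of MHC class I, gave -0.43 ± 0.19 with an unadjusted p of 0.0281, and 0.0658 without the 4 arrays of low correlation. Of the markers of other liver cells, macrophage markers had 8 of 10 above 0 with a median of 0.12 (5 of 10 and 0.00 without the 4 arrays of low correlation). Endothelial markers had 2 of 10 above 0 and a median of -0.06 (6 of 10 and 0.02 without those arrays), and stellate cell and fibroblast markers 7 of 10 and 0.04 (4 of 10 and -0.11). The sign of both medians thus turned with the arrays used. The 6 measured lymphocyte markers, of which 0 were detected on all 32 arrays, had 1 above 0 and a median of -0.18 (0 of 6 and -0.24). Their part in the interferon and complement values was not tested.

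**Figure D4:**
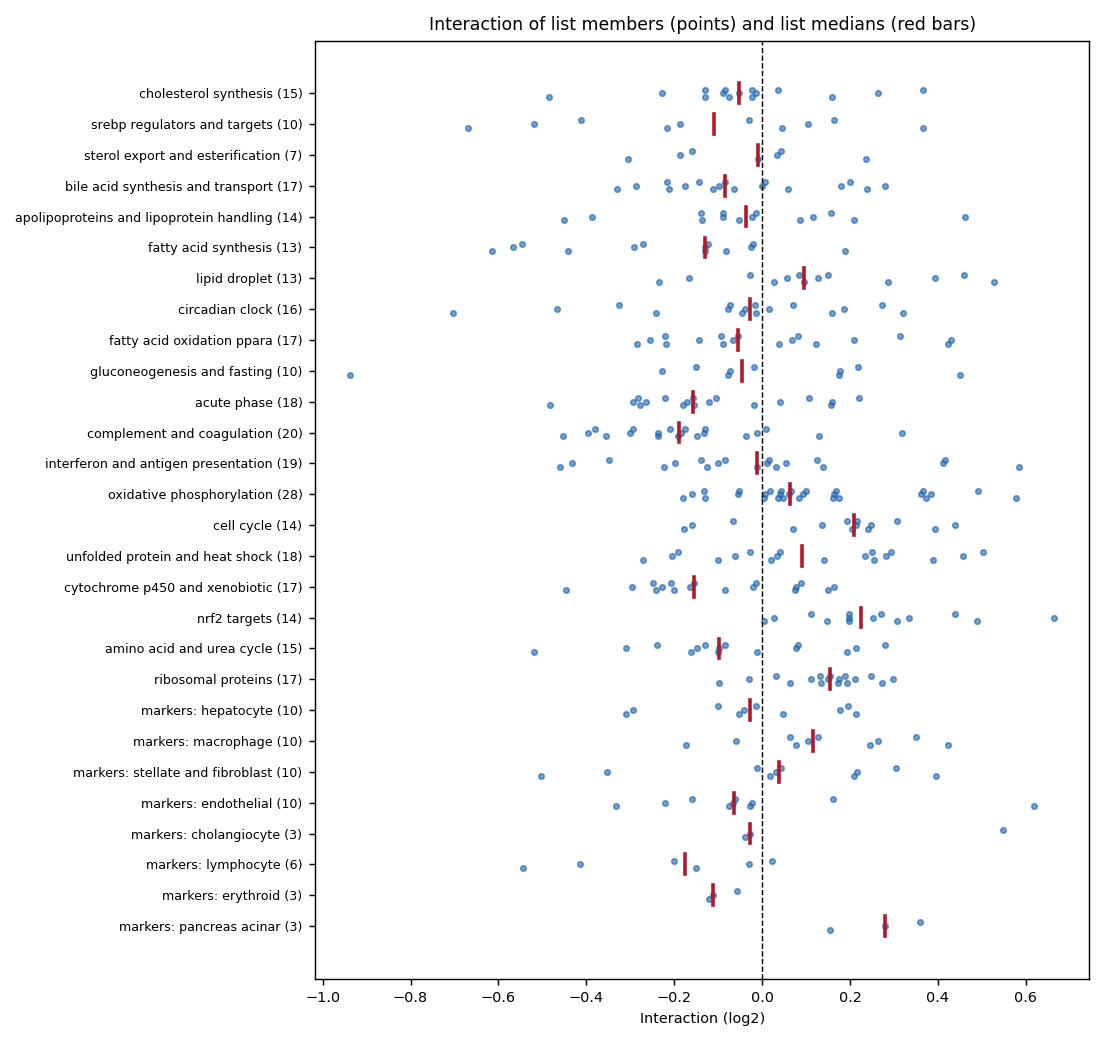
Interaction (x axis, log2) of each measured member (points) of 28 gene lists (rows, with the number of measured members) and the list median (red bar), from the fit to all 32 arrays. NRF2 targets, ribosomal proteins and cell cycle genes lie mostly to the right of 0, and complement and coagulation and fatty acid synthesis genes to the left.

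All 14 measured NRF2 targets, the detoxification and antioxidant genes turned on by the stress-sensing factor NRF2, had interactions above 0, with a median of 0.23. Yet their mean level split by chip and not by group, with chip at 86.5% of its variance and group at 1.25%. Gsta1, a glutathione transferase, had chip medians of 4.60, 10.39, 7.43, 8.31, 11.84 and 10.91 on chips 1 to 6, and Cbr3, a carbonyl reductase, 5.25, 10.15, 6.20, 6.18, 10.87 and 10.40. Chips 2, 5 and 6 were high and chips 1, 3 and 4 low, and on chips 2, 5 and 6 there were 4 livers of every group. Chip accounted for 82.1% of the variance of Gsta1 and 87.6% of that of Cbr3, and group for 1.71% and 0.841%, against 27.4% and 7.36% for the median gene. Gsta2, Gstm3, Srxn1 and Gpx2 were alike, with chip shares between 83.2% and 85.1%, and Nqo1 had 76.1%. Chip shares were taken only for these members, which had a wide spread, and not for the others of the list. With so wide a spread the interaction of Gsta1 was 0.44 ± 1.61 and that of Gsta2 0.66 ± 1.13 in the fit without a chip block. With chip as a block the error was smaller, and Gsta2 gave 0.83 ± 0.47 (limma unadjusted p = 0.0859, adjusted p = 0.998). Gsta1 and Gsta2 are near-identical copies whose probes may share signal. Without the 4 arrays of low correlation 6 of the 14 genes were above 0, the median was -0.06, Gsta1 gave -0.59 ± 1.59 and Gsta2 0.11 ± 1.11. The median was -0.0015 without HC+RSV replicate 3 alone. With chip as a block it was 0.28 over all arrays, with 14 of 14 above 0, and 0.25 without the 4 arrays, with 12 of 14. Whether livers on a chip also shared housing, collection or extraction is not stated in the labels, and these and the chip itself cannot be told apart.

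**Figure D5:**
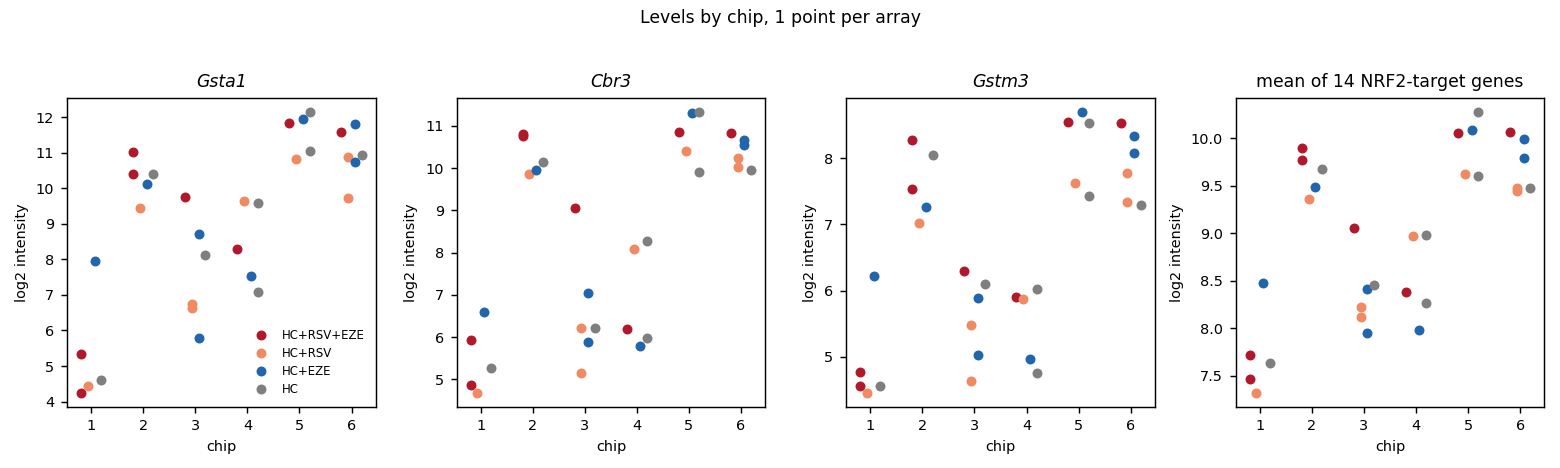
Log2 intensity (y axis) by chip (x axis, chips 1 to 6) for Gsta1, Cbr3, Gstm3 and the mean of 14 NRF2 targets, 1 point per array, coloured by group. On chips 2, 5 and 6 the livers of all 4 groups are high, with Cbr3 medians from 10.15 to 10.87, and on chips 1, 3 and 4 they are lower, with medians from 5.25 to 6.20.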

How the data were processed

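Biotin-labelled RNA from 32 livers was hybridised to 32 Illumina bead arrays, and each was assigned to groups by the labels, which speak of further samples not analysed here. The livers are individual ones per the labels' protocols. The authors deposited probe intensity values that were not normalized between arrays, some of them below 0, and their background subtraction is not described. Each deposited intensity has a detection value, a fraction from 0 to 1, and 1 minus this value was taken for the detection p. A second deposited table, used as an alternative, holds log2 values for 15505 of 25697 probes, and the submitters' processing notes name limma.

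Intensities were background corrected (limma's normal-exponential model with the detection p, offset 16), then quantile normalized and log2 transformed in R 4.3.3 with limma 3.58.1. The 12844 probes that had, on 8 or more arrays, a detection p under 0.05 were kept, of which 12026 had a gene name and 818 did not. For each of 2283 genes with several probes the one with the highest mean was used. Names came from the platform annotation, updated through Entrez IDs for 14548 of 14557 named probes.

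The 4 group means were fitted with lmFit and eBayes (28 residual degrees of freedom), and the interaction and its 4 component comparisons were adjusted by Benjamini-Hochberg over the genes. The 2 rosuvastatin and the 2 ezetimibe comparisons share groups, so no correlation between them is given. The procedure was run on simulated data with independent noise and no chip effect. That run does not test how the fit behaves where arrays of a chip or genes vary together. Named genes were those called in any comparison, the 10 with the smallest interaction p in each direction, a fixed panel of 26 genes (22 measured) and up to 4 members of each described list. These list members were those with the smallest unadjusted interaction p of their list, picked after the values were seen. The 28 lists hold 463 genes, 367 measured. Members and lists were chosen with earlier results of these data known. Array number limits the precision, and intervals are those of the fit. Promoters were searched as plain letters on both strands. Alternatives were other background corrections, scalings and filters, every probe, chip, array position and replicate number as terms, array weights, a variance trend, and leaving out arrays. Leaving out the 4 arrays of lowest correlation, with and without a chip block, was chosen after seeing the data.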

Additional observations from a re-analysis of the deposited data

Results flagged for a closer look

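In 324 sets of 8 livers (a named gene in a group), 18 had 1 liver whose gap to the next exceeded Dixon's 95% limit relative to the group's range, where chance gives about 1 in 20. All values are log2 intensities. HC+RSV replicate 3 held 4 of them: Cyp8b1 at 13.17 was the highest of its group, and Irf7 at 5.34, Rplp0 at 5.29 and Rpl4 at 7.17 were the lowest. It is also the array with the lowest mean correlation to the others. In HC+RSV+EZE, replicate 4 was lowest for Pnkd at 7.29 and for Hsd3b7 at 11.72, replicate 8 was lowest for Phax at 7.23, replicate 3 was highest for L3hypdh at 6.36 and replicate 6 was highest for Rrm2 at 5.16. In HC+EZE, replicate 1 was highest for Hsd3b7 at 13.18 and for Abcg8 at 12.02, replicate 3 was highest for Nr1d1 at 7.77 and replicate 5 was highest for Cyp7a1 at 12.21. In HC, replicate 1 was highest for Cyp26a1 at 6.44 and for Clock at 8.36, replicate 3 was lowest for Abca1 at 4.75 and highest for Elovl6 at 11.27, and replicate 7 was highest for Irf7 at 7.53.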

How the results depend on the processing

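The interaction had 0 calls in limma under every alternative run, including each of the 32 fits without 1 array. The number of genes at an unadjusted p under 0.05, 152 in the fit reported, was 229 over every kept probe, 61 with scaling to equal medians, 100 with the stricter filter, 347 with chip as a fixed block, 255 with chip as a random block, 273 with array weights, 630 without the 4 arrays of low correlation and with a chip block, and between 133 and 205 without single arrays. Calls for HC+RSV+EZE against HC+RSV, 5 in the fit reported, were 9 over every kept probe, 3 with equal medians, 9 with cyclic loess, 47 and 33 with chip as a fixed and a random block, 0 with array position as a covariate, 15 with array weights, 13 without the 4 arrays and 119 with a chip block besides. They were between 3 and 18 without single arrays. Calls for HC+EZE against HC, 4 in the fit reported, were 1 with equal medians, 0 with the authors' normalized values, 0 with array position and 10 without the 4 arrays and with a chip block, and between 2 and 8 without single arrays. Both rosuvastatin comparisons had 0 calls without any single array. The cause of these shifts was not tested.

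Of 81 named genes 65 kept the sign of their interaction in every setting, and no gene's interaction was called in any. Sizes moved widely for some dim genes. Over the settings other than leaving out 1 array, Maml1 ran from -2.88 to -0.47, Nol9 from 0.47 to 2.31 and Apc from -1.93 to -0.52. Zbtb8os ran from 0.66 to 1.57, Kremen1 from -1.42 to -0.49 and Cyp26a1 from -1.97 to -1.07. Genes other than Cyp26a1 thus went beyond 1 in size. The brighter Xdh stayed between -0.56 and -0.47. The sign turned as follows, all values being near 0 against their errors. Ciart gave -0.15 with equal medians, -0.11 with loess, -0.0626 with array weights, -0.0803 without the 4 arrays and -0.13 with a chip block besides, and Usp2 -0.0186 with equal medians, -0.00422 with weights, -0.13 and -0.10. Without the 4 arrays Lss gave 0.0433, Srebf2 0.0347, Hsd3b7 0.00101, Cd14 -0.0156 and Lyz2 -0.0575, and Fdps -0.0244 with a chip block besides. Cyp8b1 gave -0.0115 with loess and -0.00326 with chip as a fixed block. Abcg5 gave 0.12 and 0.0601 with a fixed and a random chip block, 0.13 with weights and 0.15 without the 4 arrays and with a chip block. Per2 gave 0.015 with the authors' values, 0.12 and 0.0547 with the chip blocks, 0.058 with weights, 0.0282 without the 4 arrays and 0.0284 with a chip block besides. Clock gave 0.0576 with weights, 0.0178 without the 4 arrays and 0.00676 with a chip block besides. Without single arrays the ranges that crossed 0 were -0.14 to 0.22 for Ciart, -0.0277 to 0.21 for Insig2, -0.20 to 0.36 for Usp2, -0.33 to 0.0307 for Lss, -0.30 to 0.10 for Cyp51, -0.15 to 0.0426 for Srebf2, -0.0213 to 0.35 for Cyp7a1, -0.14 to 0.19 for Cyp8b1, -0.12 to 0.12 for Abcg5, -0.16 to 0.12 for Per2, -0.13 to 0.39 for Dbp and -0.12 to 0.0869 for Clock.

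The groups share replicate numbers, and livers were treated as unpaired in the fit reported. Deviations of same-numbered arrays from their group means correlated between -0.24 and 0.76 (mean 0.18, against -0.0186 for different numbers). Of 32 arrays 7 correlated best with their own number. These values are a hint from the data and do not settle whether the numbers pair the livers. All 8 same-numbered HC+RSV and HC+EZE arrays shared a chip and 0 of 8 in every other pair of groups, so between those 2 groups number and chip cannot be told apart. The mean correlation was 0.30 between arrays of 1 chip. With the replicate number as a block there were 16 calls for HC+RSV+EZE against HC+RSV, 6 for HC+EZE against HC and 0 for the interaction.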

Other observations

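The probes without a gene name were also examined. Of 12844 kept probes 818 had no name, and 15 of these had an unadjusted interaction p under 0.05, while 0 were called in limma at an adjusted p under 0.05, as among all kept probes (229 at an unadjusted p under 0.05). The genes with the largest residual SD were Gsta1 (2.48), Cbr3 (2.42), Gsta2 (1.74), Ly6d (1.72) and Gpnmb (1.53), against a median of 0.31.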
